A study of Mus musculus with 8 samples.

Results

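The apolipoprotein L (Apol) genes examined here were Apol9a, Apol9b, Apol6, Apol7b, Apol7c, Apol7e, Apol8 and Apol10b, which are 8 of the 21051 genes listed in the deposited tables. They were chosen by gene symbol from a set that had been selected on the measured difference between TAM-KO and TAM-WT, so their own differences are given as a description, with no p-value, although the fit over all genes includes those with enough counts. RNA was sequenced from tumor-associated macrophages (TAMs), sorted as CD45+F4/80+ cells from s.c. B16 melanomas on day 14 after injection. TAM-WT comprised 4 libraries from WT littermates and TAM-KO 4 libraries from Colec11-/- mice. Both groups were young adult male mice on the C57BL/6 strain, and both carried the same B16 tumor, a pigmented melanoma line of C57BL/6 origin. Colec11, which encodes the secreted lectin collectin-11, was lost in all cells of the TAM-KO mice and not in macrophages alone. The comparison addresses how gene expression in the sorted cells differed when the host lacked collectin-11.

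APOL proteins are relatives of the human serum factor APOL1, which lyses trypanosomes by forming pores in membranes. The mouse has no APOL1 gene, and its Apol genes encode mostly intracellular proteins that bind lipids. Several of them are interferon-stimulated genes (ISGs), switched on when interferon binds its receptors. Mouse Apol9a and Apol9b are near-identical ISGs with antiviral activity that also bind phosphatidylethanolamine. Interferon acts on such genes through short repeats of GAAA, called interferon-stimulated response elements, near the start of transcription.

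All 8 members lay on chromosome 15 in the RefSeq annotation of GRCm38.p6. Apol6 stood apart at chr15:77045050-77057108, and 347 kb separated its end from the next member. The other 7 fell within 353 kb. In order they were Apol9a at chr15:77403789-77411080, Apol7b at chr15:77422209-77447460, Apol7c at chr15:77524852-77533335, Apol10b at chr15:77584154-77598542, Apol7e at chr15:77695706-77719288, Apol9b at chr15:77729047-77736382 and Apol8 at chr15:77745109-77757062. Apol9a and Apol9b were thus close in sequence but not in position, with 318 kb between them.

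The start of transcription of Apol9b is shown because this gene had the highest level in the family. The 300 bases of the first of its 2 RefSeq promoters (250 before the start site and 50 after it) ran over chr15:77728822-77729121 on the + strand. Capitals mark the matches to a core of the interferon-stimulated response element (GAAA, any 2 bases, GAAA), which was searched on both strands and here reads on the opposite one.
Apol9b: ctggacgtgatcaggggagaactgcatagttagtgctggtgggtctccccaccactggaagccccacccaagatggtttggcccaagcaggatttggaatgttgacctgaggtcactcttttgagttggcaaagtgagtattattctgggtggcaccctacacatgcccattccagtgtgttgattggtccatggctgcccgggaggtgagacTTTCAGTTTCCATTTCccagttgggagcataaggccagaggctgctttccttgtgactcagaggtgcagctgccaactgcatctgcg

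The capitals hold 2 overlapping matches, whose first bases lie at -37 and -31 from this start site. The same stretch is shown for other members in windows of 60 bases, to set genes with and without the motif side by side. The windows are chr15:77411105-77411164 on the - strand for Apol9a, chr15:77596095-77596154 on the - strand for Apol10b, chr15:77533335-77533394 on the - strand for Apol7c, chr15:77698829-77698888 on the + strand for Apol7e and chr15:77447461-77447520 on the - strand for Apol7b, and the last 3 end at the same run of letters. Capitals again mark the motif.
Apol9a: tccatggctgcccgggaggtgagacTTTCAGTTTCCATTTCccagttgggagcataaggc
Apol10b: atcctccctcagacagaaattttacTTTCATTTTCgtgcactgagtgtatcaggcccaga
Apol7c: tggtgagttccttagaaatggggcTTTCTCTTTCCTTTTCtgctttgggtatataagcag
Apol7e: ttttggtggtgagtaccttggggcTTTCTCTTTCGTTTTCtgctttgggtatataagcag
Apol7b: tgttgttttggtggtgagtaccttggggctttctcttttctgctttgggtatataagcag

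Of the 7 members with a promoter in the table, 5 held the motif (71.4%), against 1131 of all 32851 promoters (3.44%) and 1079 of 27025 genes (3.99%). Apol9a, Apol9b, Apol7c and Apol7e each held 2 overlapping matches and Apol10b held 1, while Apol7b and Apol8 held none in this window. Apol6 had no entry. The motif was also present in 14 of 23 antiviral ISGs with a promoter (60.9%) and in 11 of 18 interferon gamma response genes (61.1%). A second motif (TTC, any 3 bases, GAA), found at many genes that interferon gamma switches on, was in 0 of the 7 members. It was in 8.3% of all promoters and in 2582 of 27025 genes (9.55%), in 5 of 23 antiviral genes (21.7%) and in 9 of 18 interferon gamma response genes. With so few members and so low a share over all genes, the 0 is not read as a lack. The promoters of Apol9a and Apol9b shared a run of 278 identical bases, so these 2 are not independent examples, and Apol7b and Apol7e shared a run of 162. A match of letters is not a measured binding site.

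Before the members' values, the libraries were checked as a whole. Reads on genes numbered from 16225362 to 17280267 in 7 libraries. The deposited table of TAM-KO replicate 1 lacked 5311 genes, so genes absent from it were fitted on 7 libraries. CPM below are expected counts scaled by library size and TMM factor over the 12572 genes that all 8 libraries shared, on which they held from 10061535 to 10607640 reads. Colec11 itself had 1, 4, 0 and 1 counts in the TAM-WT libraries and 1 in each TAM-KO library, so the RNA does not check the genotype labels. Over all 12412 genes tested, 175 were called higher and 139 lower in TAM-KO (fold change of at least 2 and adjusted p of at most 0.05 by edgeR's quasi-likelihood test), which is 2.53% in either direction, 1.41% for higher and 1.12% for lower genes. By the adjusted p alone 9.81% were called.

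Of the 8 members, 4 passed the filter on low counts (Apol9a, Apol9b, Apol7c and Apol8), 3 had counts too low for it (Apol10b, Apol7e and Apol6) and Apol7b had no value in any library. In the fit 2 of the 4 were called, Apol9a and Apol9b, both higher in TAM-KO. The background for such a call is the 1.41% above, and nothing is read from this count because the members came from the same contrast. The groups did not overlap in CPM for Apol9a, Apol9b and Apol10b, all higher in TAM-KO. Of all genes tested, 8.72% were higher without overlap and 18.6% did not overlap in either direction. Genes lacking a TAM-KO replicate 1 value were compared there on the other TAM-KO libraries. Apol10b was not among the genes tested, so these shares are no background for it.

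**Figure D1:**
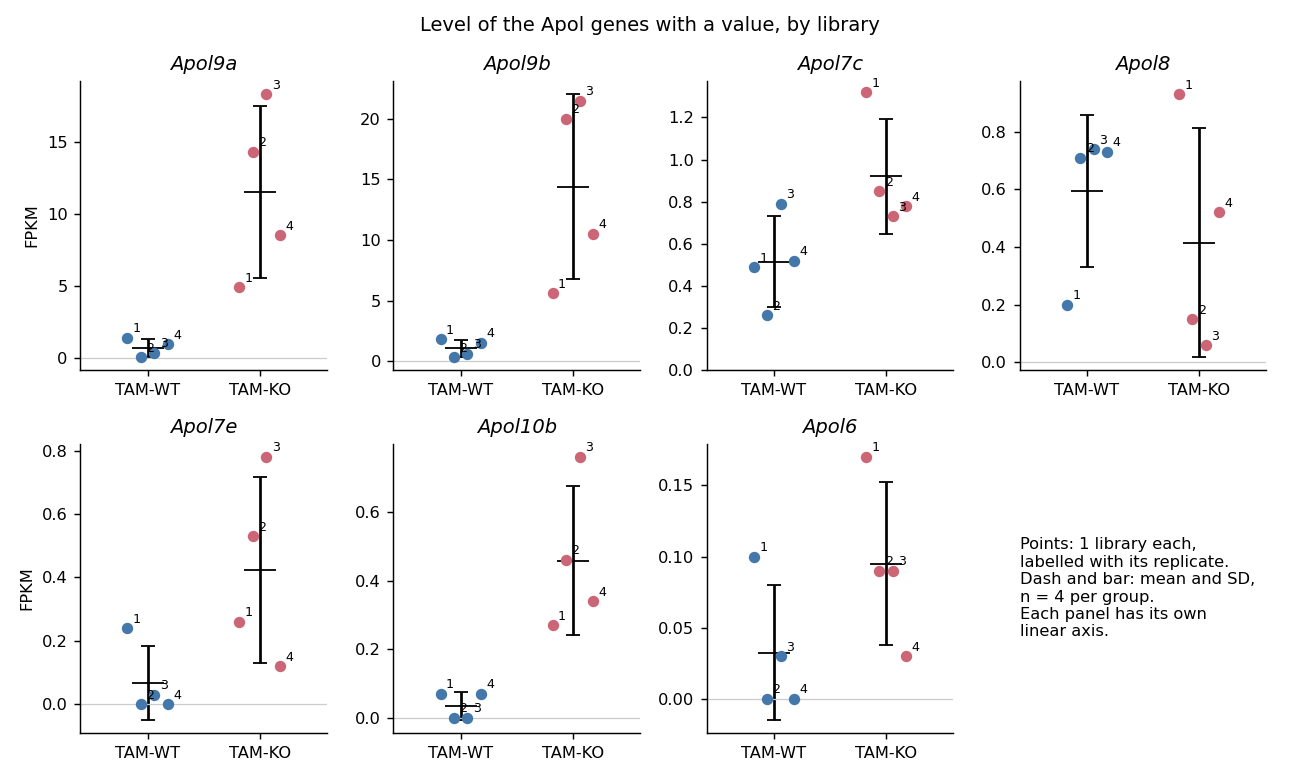
Level of each Apol gene with a value, in FPKM on a linear axis of its own, in TAM-WT (blue) and TAM-KO (red); each point is 1 library with its replicate number, and the dash and bar are the mean and SD (n = 4). The groups do not overlap for Apol9a, Apol9b and Apol10b, and overlap for Apol7c, Apol8, Apol7e and Apol6; for Apol7c the value of TAM-KO replicate 1 comes from the table of the whole series.

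Apol9a and Apol9b made up the large difference. Apol9a (gene 223672) had 28.9, 1.32, 9 and 20.3 expected counts across the TAM-WT libraries, in the order of their replicate numbers, which is used throughout. Across the TAM-KO libraries it had 104, 288, 379 and 179.6. In FPKM, which allows for gene length and depth, these were 1.39, 0.06, 0.35 and 0.94 against 4.9, 14.3, 18.3 and 8.51. Every TAM-KO library was above every TAM-WT library, and the lowest TAM-KO library stood 3.39 times above the highest TAM-WT library in CPM. The mean level was 0.685 ± 0.596 FPKM in TAM-WT and 11.5 ± 5.95 FPKM in TAM-KO (SD, n = 4 each), a fitted log2 difference of 3.92 with a standard error of 0.58.

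Apol9b (gene 71898) followed Apol9a library by library. It had 40.1, 8.68, 14 and 33.7 expected counts in TAM-WT and 128, 425, 477 and 227 in TAM-KO, or 1.82, 0.34, 0.62 and 1.53 FPKM against 5.59, 20, 21.5 and 10.5 FPKM. Again the groups did not overlap, with a gap of 3.01 times in CPM between the nearest libraries. Its mean was 1.08 ± 0.709 FPKM in TAM-WT and 14.4 ± 7.64 FPKM in TAM-KO (SD, n = 4 each), with a log2 difference of 3.61 and a standard error of 0.52. Within TAM-KO, replicates 2 and 3 were the highest and replicate 1 the lowest for both genes. Within TAM-WT, replicates 1 and 4 were the highest and replicate 2 the lowest for both.

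Near-identical copies share reads, and expected counts divide such reads between copies by estimate. The longest open reading frames of Apol9a and Apol9b were both 933 bases and were 98.5% identical. Of the stretches of 50 bases in the Apol9a transcript, 52.6% also occurred exactly in Apol9b. The share of the pair's counts given to Apol9a was 44.8%, 40.5%, 44.3% and 44.1% in TAM-KO, where the sums were large. It was 41.9%, 13.2%, 39.1% and 37.6% in TAM-WT, where replicate 2 had 10 counts in all. The division between the copies is therefore uncertain, and their sum is the firmer value. Their agreement across libraries is likewise not that of 2 independent genes.

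Summed over the pair, TAM-WT had 69, 10, 23 and 54 counts and TAM-KO had 232, 713, 856 and 407. The sums were 1.76 ± 1.3 FPKM in TAM-WT and 25.9 ± 13.5 FPKM in TAM-KO (SD, n = 4 each). The mean CPM was 13.4 times higher in TAM-KO, a log2 ratio of 3.74, and the nearest libraries were 3.17 times apart. Leaving out each library in turn kept the log2 ratio between 3.42 and 4.13, the lowest without TAM-WT replicate 2 and the highest without TAM-WT replicate 1. The spread within each group was wide, and the TAM-WT libraries alone ran from 0.949 to 6.66 CPM.

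**Figure D2:**
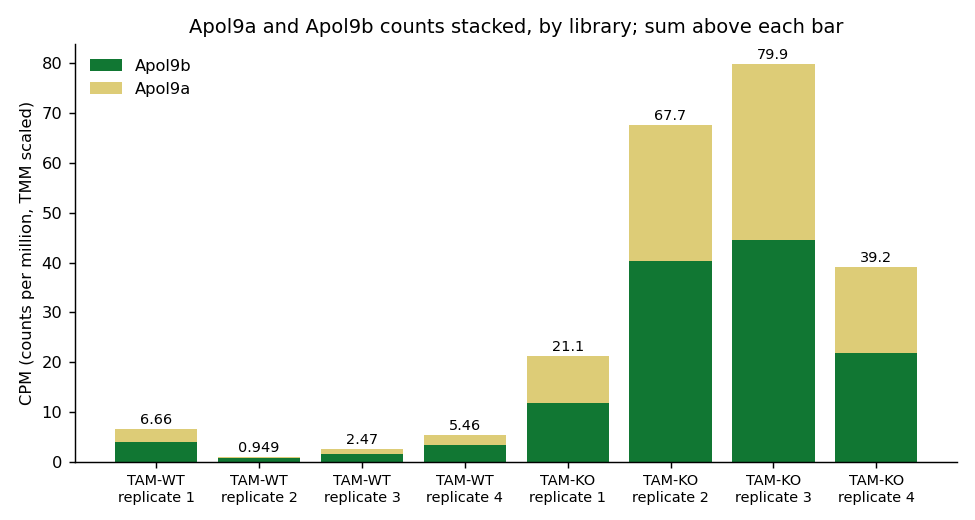
CPM of Apol9b (green) and Apol9a (yellow) stacked for each of the 8 libraries, with the sum printed above the bar. The TAM-KO bars reach from 21.1 to 79.9 CPM and the TAM-WT bars from 0.949 to 6.66 CPM, with similar proportions of the 2 colors except in TAM-WT replicate 2.

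These levels placed the pair among the weakly expressed genes of TAM-WT and nearer the middle or above in TAM-KO. By FPKM, Apol9b stood above 26.9% to 36.9% of the genes in the TAM-WT libraries and above 48.8% to 76.7% in the TAM-KO libraries. For Apol9a the corresponding ranges were 18.2% to 34.8% and 46.9% to 73.4%. Neither gene came near the level of the abundant macrophage genes in any library.

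Apol10b had the same direction at far lower counts. Its counts were 2, 0, 0 and 3 in TAM-WT and 8, 13, 24 and 10 in TAM-KO, so the groups did not overlap, and TAM-KO replicate 3 was again the highest. Its mean was 0.035 ± 0.0404 FPKM in TAM-WT and 0.458 ± 0.216 FPKM in TAM-KO (SD, n = 4 each). The ratio of summed counts, scaled to library size, was 10.4, with a 95% exact interval of 4.18 to 33.1 that covers counting error only. Fitted without the filter on low counts, the log2 difference was 3.25 with a standard error of 0.71. Its open reading frame was at most 82.5% identical to that of another Apol gene, and 6.11% of its stretches of 50 bases occurred in one.

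Apol7e was higher in TAM-KO in sum, but the groups overlapped. It had 8, 0, 1 and 0 counts in TAM-WT and 9, 17, 26 and 4 in TAM-KO, so that TAM-WT replicate 1 lay above TAM-KO replicate 4. The ratio of summed counts was 5.86 (95% exact interval 2.87 to 13.5, counting error only), and the log2 difference without the filter was 2.49 with a standard error of 0.87. Its reading frame was 98.9% identical to that of Apol7b, and 74.0% of its stretches of 50 bases also occurred there. Apol7b had no value in any of the 8 libraries, so how reads common to both were divided cannot be read from these tables.

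Apol6, whose human counterpart has been tied to cell death, was close to the limit of detection. It had 3, 0, 1 and 0 counts in TAM-WT and 6, 3, 3 and 1 in TAM-KO. The groups overlapped. The ratio of summed counts was 3.06, with a 95% exact interval of 0.945 to 12.9 that covers counting error only. None of its stretches of 50 bases occurred in another Apol gene.

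The remaining pair had enough counts for the fit and did not separate the groups. Apol7c had 15, 8, 24 and 16 counts in TAM-WT and 41, 25, 22 and 24 in TAM-KO, where the first value comes from the table of the whole series. TAM-WT replicate 3 lay within the TAM-KO range. Its mean was 0.515 ± 0.217 FPKM in TAM-WT and 0.92 ± 0.271 FPKM in TAM-KO (SD, n = 4 each), and the log2 difference was 0.50 with a standard error of 0.37 on 7 libraries and 0.71 with TAM-KO replicate 1 filled in. Apol7c and Apol7e both held the motif in the windows above, but their differences come from unlike fits. A link between motif and difference was not tested.

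Apol8 had the opposite sign with the widest overlap. It had 13, 35, 42 and 40 counts in TAM-WT and 56, 9, 4 and 29 in TAM-KO, so the highest and the lowest library were both TAM-KO. The log2 difference was -0.51 with a standard error of 0.64, and the means were 0.595 ± 0.264 FPKM and 0.415 ± 0.397 FPKM (SD, n = 4 each). The TAM-KO libraries lowest for Apol8, replicates 3 and 2, were the highest for Apol9a and Apol9b. This gene had no motif match in the promoter window and shared no stretch of 50 bases with another Apol gene.

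In TAM-KO by mean FPKM the members ran from Apol9b, Apol9a, Apol7c, Apol10b, Apol7e and Apol8 down to Apol6. Apol9b and Apol9a differed by less than the larger of their SDs, as did Apol10b from Apol7e, Apol7e from Apol8 and Apol8 from Apol6, whereas the steps from Apol9a to Apol7c and from Apol7c to Apol10b were larger than that. In TAM-WT the 4 genes Apol9b, Apol9a, Apol8 and Apol7c had means between 0.515 and 1.08 FPKM, within their spread of one another. The 7 members with a value summed to 110, 53, 91 and 113 counts in TAM-WT and 352, 780, 935 and 475 in TAM-KO. Apol9a and Apol9b held 62.7%, 18.9%, 25.3% and 47.8% of these counts in TAM-WT and 65.9%, 91.4%, 91.6% and 85.7% in TAM-KO.

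Other genes with the name were mostly silent. Apol10a, Apol11a and Apol11b had no value in any library, although the promoter of each held both the GAAA repeat and the second motif. Apol7a had 1 count in TAM-WT replicate 2 and 1 in TAM-KO replicate 1, with 0 elsewhere. Apold1, a related gene of blood vessels on chromosome 6, had 10.8 ± 3.42 FPKM in TAM-WT and 14.7 ± 3.08 FPKM in TAM-KO (SD, n = 4 each), and did not pass the test (log2 difference 0.35, SE 0.20, adjusted p = 0.262, edgeR).

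The interferon pathway was then examined through lists of known genes, beginning with its signals and receptors. Of 14 interferon signaling genes tested, 1 was called higher and 0 lower, with a median log2 difference of 0.14 beside 0.00 for all genes tested, and 7 had an unadjusted p under 0.05 in edgeR, as did 3806 of all 12412 genes (30.7%). Stat2, a transcription factor of the type I interferon response, passed the adjusted p but not the fold threshold (0.85, adjusted p = 0.0442), and Irf9, which binds DNA in the same response, did not pass (0.38, adjusted p = 0.126, 7 libraries). Irf7, the ISG that amplifies type I interferon, had a log2 difference of 1.25 with an adjusted p of 0.0538. The receptor chain Ifnar1 (-0.10, adjusted p = 0.703), the kinase Jak1 (-0.16, adjusted p = 0.389) and the factor Irf8 (0.01, adjusted p = 0.96), each on 7 libraries, did not pass. Ifng, the cytokine itself, had 0.653 ± 1.23 FPKM in TAM-WT and 4.9 ± 2.52 FPKM in TAM-KO (SD, n = 4 each), and did not pass (2.94, SE 1.04, adjusted p = 0.102, 7 libraries). Of the 14 differences, 9 were above 0. The lowest was that of Ifnb1, which encodes a type I interferon and was chosen after its values were seen. It did not pass either (-1.38, SE 0.54, adjusted p = 0.128, 7 libraries).

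Among the antiviral ISGs, the group to which Apol9a and Apol9b belong, 4 of 30 tested were called higher and 0 lower, and 23 had an unadjusted p under 0.05. The median log2 difference was 0.73, and 29 of 30 were above 0, against 6244 of all 12412 genes. The calls were Ifi44 (2.10, adjusted p = 0.0384), Zbp1, a sensor of viral nucleic acid (1.42, adjusted p = 0.0353), and the oligoadenylate synthetases Oas3 (1.21, adjusted p = 0.0457) and Oas1g (1.07, adjusted p = 0.0205). The 4 genes of this list with the highest mean CPM did not pass. They were Parp14 (0.56, adjusted p = 0.135), Rsad2, which encodes viperin (0.52, adjusted p = 0.391), Bst2, which tethers budding virus (0.40, adjusted p = 0.0503), and Oasl2 (0.98, adjusted p = 0.0537). By FPKM the most abundant gene of the list was Ifi27l2a, chosen after its values were seen, with 455 ± 52.4 FPKM in TAM-WT and 431 ± 52.3 FPKM in TAM-KO (SD, n = 4 each), and the only difference of the 30 below 0 (-0.15, adjusted p = 0.46). The fitted differences of Apol9a and Apol9b, 3.92 and 3.61, lay above the largest of this list, which was that of Ifi44, and this is a description of genes chosen for their difference.

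Genes that respond mainly to interferon gamma had larger fitted differences as a group, but most of these fits lacked TAM-KO replicate 1. Of 24 tested, 9 were called higher and 0 lower, 20 had an unadjusted p under 0.05, and the median log2 difference was 1.44. The calls were the immunity-related GTPases Tgtp1 (3.42, adjusted p = 0.033), Tgtp2 (2.65, adjusted p = 0.0429), Igtp (1.99, adjusted p = 0.0269), Irgm2 (1.61, adjusted p = 0.0274) and Irgm1 (1.54, adjusted p = 0.0305), the guanylate-binding proteins Gbp3 (1.44, adjusted p = 0.0429) and Gbp7 (1.32, adjusted p = 0.0469), the feedback inhibitor Socs1 (1.45, adjusted p = 0.0393) and the immunoproteasome subunit Psmb9 (1.11, adjusted p = 0.0285). Of these calls, Tgtp2, Igtp, Irgm1, Socs1 and Psmb9 were fitted on 7 libraries. So were 15 of the 24 genes, against 4 of the 30 antiviral genes, so the list medians rest on unlike libraries. The library left out, TAM-KO replicate 1, was the lowest TAM-KO library in the list mean given below. Tgtp1 and Tgtp2 are near-identical copies, and their division of reads is uncertain. Of the 4 genes with the highest mean CPM, the chemokine Cxcl10 passed the adjusted p alone (0.92, adjusted p = 0.0324, 7 libraries). The peptide transporter Tap1 (0.87, adjusted p = 0.0546), the chemokine Cxcl9 (2.38, adjusted p = 0.137, 7 libraries) and the checkpoint ligand Cd274 (0.14, adjusted p = 0.741) did not pass. Irf1 had a log2 difference of 0.82 (adjusted p = 0.0488, 7 libraries), under the fold threshold. The study itself picked Stat2, Socs1, Cxcl9 and Ifng from these libraries, so they are not independent evidence of a direction.

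Calls on these lists rested on few libraries. Leaving out replicate 3 of TAM-WT, edgeR called 0 genes of each of the 3 interferon lists and 59 in place of 314 over all genes. The same 0 resulted from leaving out replicate 2 or replicate 3 of TAM-KO, with 32 and 28 genes called over all. Without TAM-WT replicate 4 it called 1 interferon gamma response gene and 7 antiviral genes, and without TAM-WT replicate 1 it called 17 interferon gamma response genes. The antiviral calls numbered 2 without TAM-WT replicate 2 and 1 without TAM-KO replicate 4. The interferon signaling calls numbered 2 without replicate 1, 2 or 4 of TAM-WT. Without replicate 2, 1 of them was lower in TAM-KO, and the rest were higher. Over all genes 523 were called without replicate 2 of TAM-WT and 164 without its replicate 4. When the series-wide table supplied the missing TAM-KO replicate 1 values, 5 interferon gamma response genes were called.

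**Figure D3:**
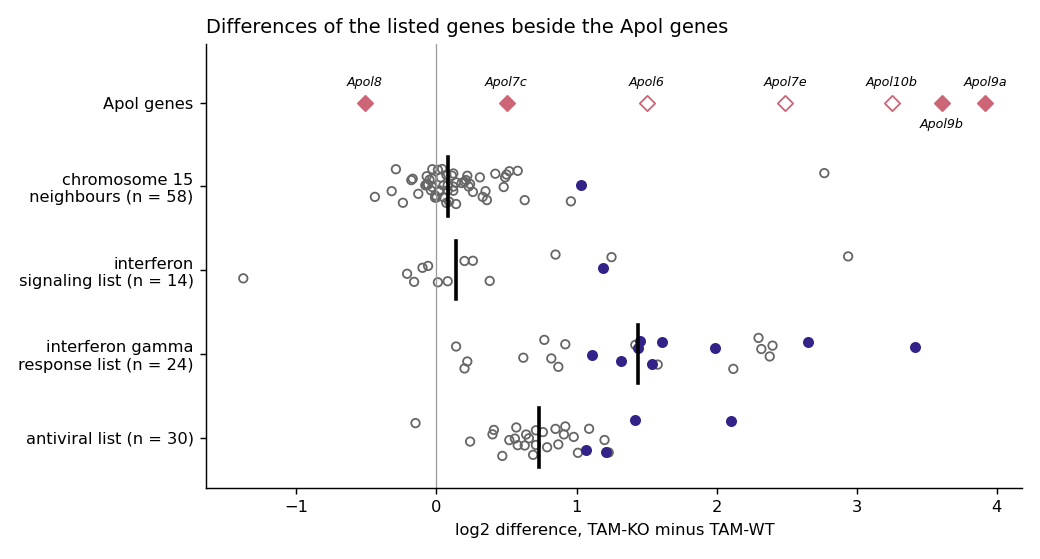
Fitted log2 difference (TAM-KO minus TAM-WT, horizontal axis) of each tested gene of 4 lists, with calls filled, other genes open and the list median as a bar, beside the Apol genes (diamonds; open where fitted without the filter on low counts). The list medians are 0.73, 1.44, 0.14 and 0.08 from the antiviral list up to the chromosome 15 neighbours, and Apol9a and Apol9b stand at 3.92 and 3.61.

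Library by library, the pair and the ISG lists ran in similar but not equal ways. On the log2 scale, centred on its own mean, the summed Apol9a and Apol9b stood at -0.87, -3.18, -2.14 and -1.13 in TAM-WT and at 0.72, 2.38, 2.62 and 1.6 in TAM-KO. The mean of 9 interferon gamma response genes measured in every library stood at 0.28, -2.0, -1.28 and -0.52 in TAM-WT and at 0.30, 1.25, 1.47 and 0.49 in TAM-KO. The mean of 26 antiviral genes stood at -0.12, -1.09, -0.65 and 0.15 in TAM-WT and at 0.11, 0.46, 0.60 and 0.53 in TAM-KO. TAM-WT replicate 2 was the lowest and TAM-KO replicate 3 the highest in each of the 3. The groups overlapped in the antiviral mean, and for the interferon gamma mean TAM-WT replicate 1 and TAM-KO replicate 1 stood at nearly the same level. The Apol9 sum kept them apart. The pair came from a set selected on the difference between the groups, so nothing is read from this contrast with the lists.

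The genes of most similar pattern were sought by the root mean square difference of such centred profiles over 12328 genes. The nearest 5 were Ly6a, an interferon-responsive surface protein (0.57, 7 libraries), Tgtp2 (0.60, 7 libraries), Iigp1, another immunity-related GTPase (0.61, 8 libraries), Tgtp1 (0.63, 8 libraries) and Cd8b1, a chain of the CD8 co-receptor of T cells (0.64, 7 libraries). Ly6a had 70.3, 5.31, 8.37 and 29.7 CPM in TAM-WT and 86.7, 248, 241 and 126 CPM in TAM-KO, a log2 difference of 2.85 (SE 0.74, 7 libraries). The log2 differences were 2.40 (SE 0.70) for Iigp1 and 3.41 (SE 0.93) for Cd8b1. These follow from the choice of genes by their pattern and are a description. All 5 had a higher level in TAM-WT replicate 1, relative to their own mean, than the Apol9 sum did.

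To see whether the difference extended over the region, the tested genes within 1 Mb of a member were taken. Of 58 such neighbours, 1 was called higher and 0 lower, 15 had an unadjusted p under 0.05 in edgeR beside 30.7% of all genes, and the median log2 difference was 0.08. The call was Nrbp2, at -1643.5 kb from the start of Apol9b and within the limit of 1 Mb through Apol6 (1.03, SE 0.22, adjusted p = 0.0283), and it was lost without TAM-WT replicate 3 or 4 or TAM-KO replicate 1, 2 or 3. Leaving out TAM-WT replicate 1 gave 3 calls. None of the 4 neighbours with the highest mean CPM passed the test. They were Myh9, a non-muscle myosin (0.12, adjusted p = 0.617, 7 libraries), the ribosomal gene Rpl8 (0.00, adjusted p = 0.975), the linker gene Plec (-0.03, adjusted p = 0.949) and Cyth4 (-0.06, adjusted p = 0.708). Myh9 lies just beyond Apol8. Il2rb, a cytokine receptor chain of T and NK cells, had the largest difference of the neighbours and was chosen after its values were seen (2.77, SE 0.90, adjusted p = 0.0817, 7 libraries).

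**Figure D4:**
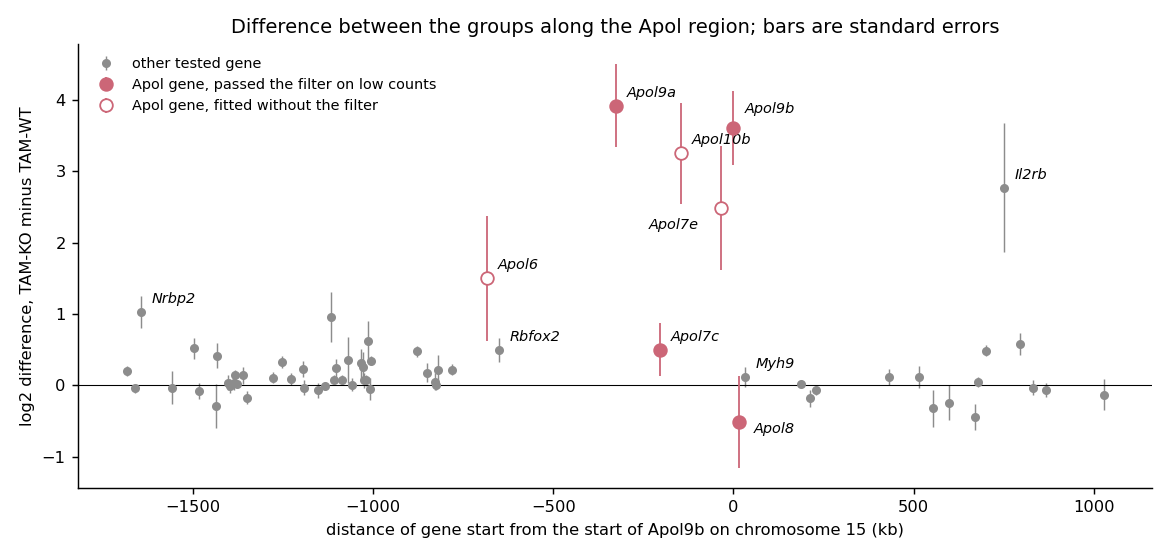
Fitted log2 difference (TAM-KO minus TAM-WT) with its standard error against the distance of each gene's start from that of Apol9b, for the Apol genes (red, open where fitted without the filter on low counts) and 58 other tested genes (grey). Apol9a at 3.92, Apol9b at 3.61 and Apol10b at 3.25 stand above the neighbours, whose median is 0.08, with Apol7c between them at 0.50 and Apol8 beyond Apol9b at -0.51.

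Markers of the labelled cell type and of others were measured beside these results. In bulk samples, fewer cells of a type and less RNA per cell cannot be told apart. The 8 macrophage markers were present and summed to 9700 to 11900 FPKM in TAM-WT and 6190 to 8860 FPKM in 3 TAM-KO libraries, with 0 of 8 called. They were led by Lyz2 (log2 difference -0.70, adjusted p = 0.0548) and Cd68 (-0.55, adjusted p = 0.0732), each fitted on 7 libraries. T and NK cell markers summed to 2.29 to 30.5 FPKM in TAM-WT and 33.1 to 103 FPKM in 3 TAM-KO libraries. Of 9 tested, 1 was called higher, Nkg7 of cytotoxic granules (3.38, adjusted p = 0.0323), and the median log2 difference was 3.0. Gzmb had 3.11 on 7 libraries with an adjusted p of 0.0744. The highest TAM-WT sum of these markers, 30.5 FPKM, was in replicate 1, the TAM-WT library with the highest Apol9 sum, and the same library also held the highest TAM-WT sums of the neutrophil, dendritic cell and B cell markers given next.

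Neutrophil markers summed to 21.4 to 32.3 FPKM in TAM-WT and 48.8 to 196 FPKM in TAM-KO. The call, 1 of 4, was S100a8 (2.68, adjusted p = 0.0481), and Csf3r was at 0.58 (adjusted p = 0.0737, 7 libraries). S100a8 had 15.4, 2.28, 1.96 and 3.56 CPM in TAM-KO, so its level was far highest in replicate 1, the TAM-KO library lowest for Apol9a and Apol9b. Dendritic cell markers summed to 18.2 to 41.9 FPKM in TAM-WT and 23.4 to 32.7 FPKM in 3 TAM-KO libraries, with 1 of 10 called, Xcr1 (1.78, adjusted p = 0.0435). The most abundant of them were Ccl22 (-0.36, adjusted p = 0.571) and Fscn1 (0.24, adjusted p = 0.643, 7 libraries). Melanoma markers summed to 1960 to 4380 FPKM in TAM-WT and 3820 to 5060 FPKM in TAM-KO with 0 of 7 called, so RNA of tumor cells was present in both groups. They were led by Pmel (0.59, adjusted p = 0.131) and Dct (0.49, adjusted p = 0.165, 7 libraries). B cell markers summed to 4.37 to 7.18 FPKM in TAM-WT and 5.7 to 10.9 FPKM in 3 TAM-KO libraries. Of these, 0 of 2 were called (Cd79b at 0.88 and Cd79a at -0.52, each on 7 libraries). Fibroblast and endothelial markers summed to 4.72 to 9.01 FPKM in TAM-WT and 8.63 to 11.9 FPKM in 3 TAM-KO libraries. Here 0 of 6 were called (Pecam1 at 1.06 and Kdr at 0.64, the latter on 7 libraries). Epithelial markers, among them Epcam and Krt18, summed to at most 0.27 FPKM in TAM-WT and in 3 TAM-KO libraries, too low for the fit. No marker with a value was at 0 in every library. The part of these cells in the Apol9a and Apol9b difference was not tested.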

How the data were processed

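RNA of sorted TAMs was measured in 4 TAM-WT and 4 TAM-KO libraries, grouped by the genotype in the labels. The authors sequenced on BGISEQ-500 and deposited expected counts per gene, estimated by RSEM and not normalized, with FPKM values per gene. The submitters' processing notes name HISAT2 2.0.4, Bowtie2 2.2.5, RSEM 1.2.12 and GRCm38.p6. The deposited p-values, q-values and log2 ratios of the authors' own comparison were not used.

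After rounding of the expected counts to integers, edgeR 4.0.16 under R 4.3.3 (TMM, filterByExpr, glmQLFit, glmQLFTest) gave the test with Benjamini-Hochberg adjustment over all genes. Of 12412 genes tested, 3016 that are absent from the table of TAM-KO replicate 1 were fitted on 7 libraries and the rest on 8. For 1188 of its 4214 missing genes, levels came from the table of the whole series, which equalled it within 0.006 counts at 2808 of 2808 shared genes. The TAM-KO replicate 1 file also holds 629 displaced values for genes without a value elsewhere, which were not used. A parenthesis after a listed gene gives its fitted log2 difference. The test was checked on simulated data.

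The members and lists were chosen with earlier results of these data known. Named besides the members and other Apol genes are Colec11, the 5 genes of most similar pattern (mean CPM of at least 1, pseudocount 0.5), the 4 genes of highest mean CPM of each list and of the neighbours, Stat2, Irf9, Irf1, Irf7, Ifng, the 2 most abundant markers of each cell type, and called list genes. The values of 1 listed gene are not reported here, though counts over its list include it. The labels name no animals, and the study gives 4 mice per group for these data. Counts differed between libraries of a group by more than sampling noise. Promoters and positions are from RefSeq on GRCm38.p6, and transcripts from GENCODE, with reading frames aligned by edlib 1.3.9.post1. Alternatives were DESeq2 size factors, DESeq2 1.42.0, no filter, at least 10 counts in every library, limma 3.58.1 on log2(FPKM + 1) and log2(FPKM + 0.1), a replicate block, a filled TAM-KO replicate 1, the adjusted p alone and leaving out each library.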

Additional observations from a re-analysis of the deposited data

Results flagged for a closer look

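In 67 groups of 4 libraries, a library was looked for whose gap to the nearest of the others exceeded Dixon's 95% critical share of the group's range, and chance alone would give about 3.35 of them. The values below met this. Apol8 stood at 0.2 FPKM in TAM-WT replicate 1, with the other TAM-WT libraries between 0.71 and 0.74. Apol7e stood at 0.24 FPKM in TAM-WT replicate 1, with the others between 0 and 0.03. Ifng stood at 2.49 FPKM in the same library, with the others between 0 and 0.12. Parp14 stood at 25.4 FPKM in TAM-KO replicate 1, with the others between 31.6 and 32.7. Apol7a stood at 0.02 FPKM in TAM-WT replicate 2 and at 0.02 FPKM in TAM-KO replicate 1, each from 1 count, with 0 elsewhere.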

How the results depend on the processing

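Over 12 alternatives the log2 ratio of the summed Apol9a and Apol9b ranged from 3.25 to 4.13. With at least 10 counts required in every library no member was left to fit. Apol9a ranged from 2.82 (log2(FPKM + 1)) to 4.45, Apol9b from 2.79 to 3.94, Apol7c from 0.25 to 0.82 and Apol8 from -1.29 to -0.16.

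Counts of calls moved more. With limma on log2(FPKM + 1), 200 genes were called over all genes (140 higher and 60 lower, against 175 and 139), with 7 antiviral, 15 interferon gamma response and 3 interferon signaling genes. With log2(FPKM + 0.1), 257 higher and 105 lower genes were called, with 9 antiviral, 14 interferon gamma response and 4 interferon signaling genes and 2 neighbours. By the adjusted p alone, 1218 genes were called, with 8 antiviral genes, 3 interferon signaling genes and 6 neighbours. DESeq2 and the fit without the filter each called 2 interferon signaling genes, and the filled TAM-KO replicate 1 gave 5 interferon gamma response genes. Leaving out 1 library gave from 28 to 523 genes over all, 0 to 7 antiviral, 0 to 17 interferon gamma response and 0 to 2 interferon signaling genes, and 0 to 3 neighbours. The cause was not tested.

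Same-numbered libraries did not deviate together as a rule (correlations of -0.325, 0.020, -0.234 and 0.261 for numbers 1 to 4). No pairing by number was seen, though these few values cannot exclude one. With a replicate block 314 genes were called, the same total as without it, but 161 higher and 153 lower against 175 and 139. It called 3 antiviral genes, against 4 without it, and 2 neighbours, against 1 without it. Depth limited Apol6, Apol7e and Apol10b, which had at most 26 counts in any library.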
